A study of Mus musculus with 9 samples.

Results

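The genes described here were 10 adipocyte and adipokine genes, followed by gene symbol through the tibial RNA-seq of 9 mice. They were the adipokines Adipoq, Lep, Cfd and Retn, the lipid droplet and fatty acid binding proteins Plin1, Plin4, Cidec and Fabp4, and the adipogenic transcription factors Pparg and Cebpa. All 10 were present among the 18272 genes of the expression table and all 10 passed the filter on low counts that left 13960 genes for testing, Lep only through the 4 libraries in which it had at least 10 counts. All animals were female C57BL/6J mice that were 10 to 11 weeks old on arrival and were injected after 1 week of acclimation. The NGT mice (normal glucose tolerance, n = 3) received vehicle, and the T1D mice (n = 3) received streptozotocin (STZ), which is toxic to pancreatic beta cells, followed by saline. The Lira mice (n = 3) received STZ and then, from 2 weeks later, subcutaneous liraglutide (0.6 mg/kg each day), a drug that activates the receptor of the incretin GLP-1. The labels give 8, 8 and 9 weeks of liraglutide for Lira mice 1, 2 and 3, whereas the methods name 8 weeks for the whole group. Each library came from the tibia of 1 mouse and held 13086373 to 16528394 expected counts.

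White adipocytes store triglyceride in a lipid droplet coated by perilipins and release hormones and other secreted proteins, the adipokines, into blood. The nuclear receptor PPARγ and the factor C/EBPα drive the differentiation of adipocytes and keep their gene programme active. In a long bone, adipocytes lie in the marrow beside blood-forming cells and arise from stromal progenitors that can also give rise to osteoblasts, and fat also lies around muscle and outer bone surfaces.

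To place the genes beside their regulatory sequence, the 250 bases before the transcription start were read for the 9 genes with an entry in the RefSeq promoter table (build GRCm38.p6, 12 promoters, none for Fabp4). In all, 3 motifs were searched on both strands: the nuclear receptor half-site AGGTCA, which PPARγ and many other receptors recognise, and the C/EBP cores TTGCGCAA and TTGCNNAA, of which the second contains the first. The half-site was found in 2 of the 12 promoters, both of Pparg, and in 14% of all 32536 distinct promoters of this length. The palindrome TTGCGCAA was found in 1 of the 12, that of Lep, and in 0.166% of all promoters. TTGCNNAA was found in 4 of the 12, 1 each of Lep, Cidec, Pparg and Plin1, and in 9.57% of all promoters. Shown here are Adipoq, the gene the others were compared with, and Plin1, which had the highest Pearson r with it over the 9 mice. Lep and Plin4, which did not follow Adipoq, are shown as well. Each is printed 5′ to 3′ on the strand of its gene, with the matches to TTGCNNAA in capitals. They cover chr16:23146286-23146535 (+) for Adipoq, chr7:79732777-79733026 (-) for Plin1, chr6:29059971-29060220 (+) for Lep and chr17:56109783-56110032 (-) for Plin4.
Adipoq: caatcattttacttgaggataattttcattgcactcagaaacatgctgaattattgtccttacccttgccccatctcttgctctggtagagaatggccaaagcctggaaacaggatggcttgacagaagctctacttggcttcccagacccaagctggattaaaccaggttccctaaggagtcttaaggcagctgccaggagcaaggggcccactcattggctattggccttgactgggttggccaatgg
Plin1: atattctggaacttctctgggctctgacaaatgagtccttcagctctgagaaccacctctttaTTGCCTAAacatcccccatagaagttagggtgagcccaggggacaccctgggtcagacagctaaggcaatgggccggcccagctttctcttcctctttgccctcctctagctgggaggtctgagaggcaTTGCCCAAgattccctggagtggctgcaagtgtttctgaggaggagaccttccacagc
Lep: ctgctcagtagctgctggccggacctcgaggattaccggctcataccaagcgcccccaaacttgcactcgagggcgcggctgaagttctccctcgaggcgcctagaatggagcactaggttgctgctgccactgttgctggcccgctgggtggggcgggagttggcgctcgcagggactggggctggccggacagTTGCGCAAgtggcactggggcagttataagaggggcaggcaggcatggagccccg
Plin4: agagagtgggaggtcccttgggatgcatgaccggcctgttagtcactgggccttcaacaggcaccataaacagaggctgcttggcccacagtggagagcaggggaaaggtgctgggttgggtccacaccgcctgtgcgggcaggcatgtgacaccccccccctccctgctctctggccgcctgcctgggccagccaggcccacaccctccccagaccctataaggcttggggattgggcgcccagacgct
The matches lay at bases -187 to -180 and -58 to -51 before the start of Plin1 and at -55 to -48 before that of Lep. The windows of Adipoq and Plin4 held none of the 3 motifs. A match in these letters is a description of the window and was not related to any measurement of binding.

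The libraries differed widely in the levels of markers of other cells. Transcripts of 15 skeletal muscle genes summed to between 94842 (T1D mouse 1) and 258194 (NGT mouse 3) CPM (counts relative to the library total, scaled by TMM), so muscle transcripts were abundant in each library labelled tibia, although the bones were stripped of muscle and connective tissue before freezing, by the study's methods. The 9 osteoblast genes summed to 5589 CPM in T1D mouse 1 and to 206 to 1393 CPM in the other 8 mice. The 8 macrophage genes summed to 968 CPM in T1D mouse 1 and to 41.9 to 136 CPM elsewhere. Neutrophil genes spanned 4.56 (NGT mouse 2) to 5306 CPM (Lira mouse 3), and erythroid genes spanned 390 (NGT mouse 2) to 29100.5 CPM (Lira mouse 3). The markers of adipocytes Adipoq, Cfd, Plin1 and Cidec were detected in all 9 libraries. Lep, also a marker of adipocytes, had 0 counts in T1D mouse 3 and at most 46 in any library. In whole tissue, fewer adipocytes and less RNA per adipocyte cannot be told apart.

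**Figure D1:**
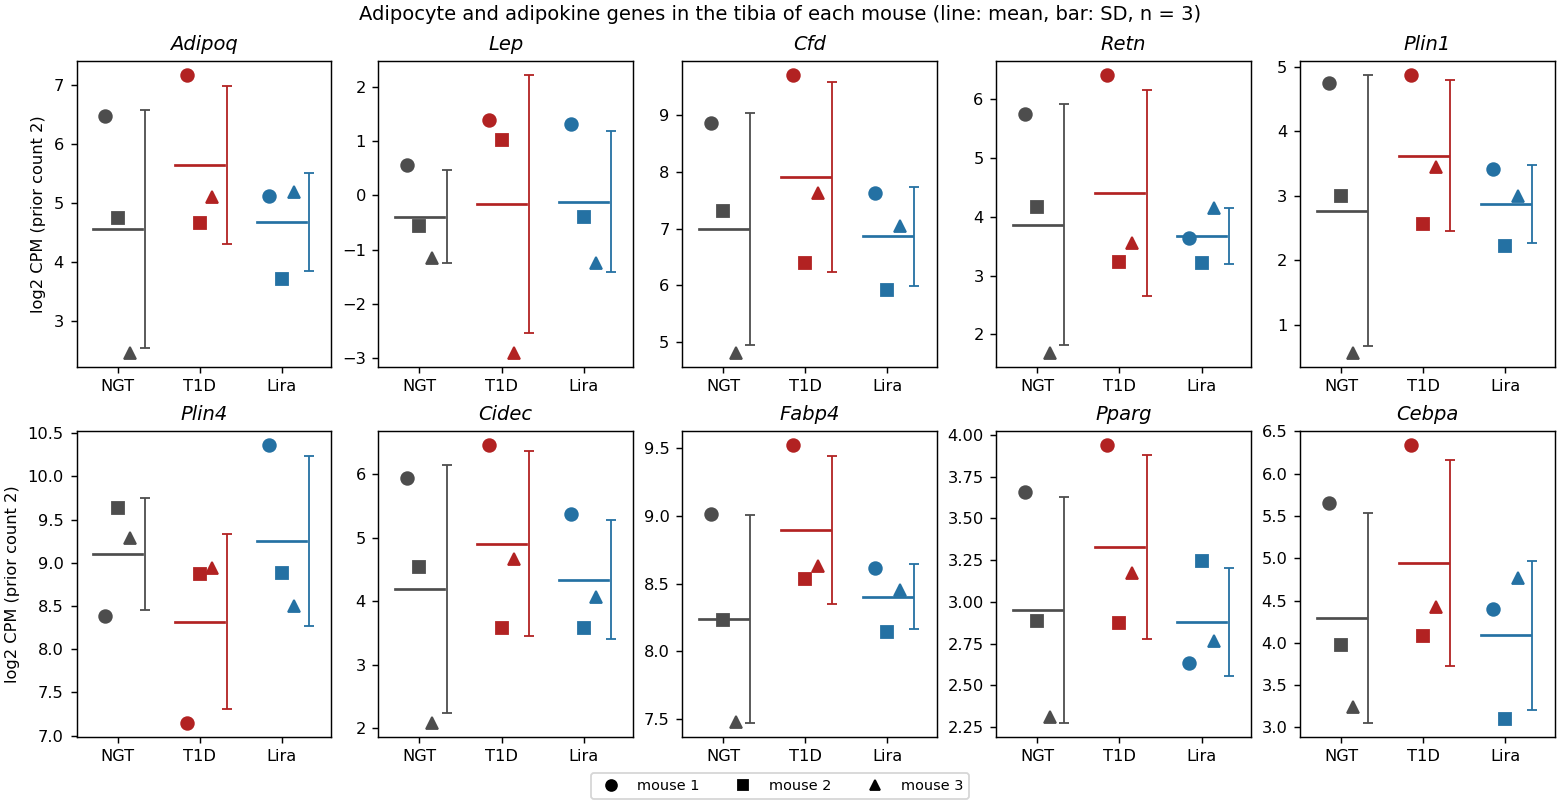
Level of each gene in each mouse as log2 CPM with a prior count of 2; colours and columns are the groups, symbols the mouse numbers, horizontal lines the group means and vertical bars the SD (n = 3). T1D mouse 1 and NGT mouse 1 were the highest and second highest for 8 of the 10 genes, all but Lep and Plin4, and the groups overlapped for every gene.

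The adipokines were high in single mice rather than in a group. Adipoq, which encodes adiponectin, was at 88.8, 26.7 and 5.38 CPM in NGT mice 1, 2 and 3, at 144, 25.1 and 34.1 CPM in T1D mice 1, 2 and 3, and at 34.7, 13.0 and 36.4 CPM in Lira mice 1, 2 and 3. The highest and lowest of the 9 mice differed 26.7-fold, and the lowest value was in NGT, the group that also held the second highest. Cfd, which encodes adipsin, the complement factor D made in large amounts by fat cells, was at 467, 159 and 28.0 CPM in the NGT mice, at 834, 84.3 and 197 CPM in the T1D mice and at 198, 60.2 and 132 CPM in the Lira mice, in the same order of mice. It again was highest in T1D mouse 1 and lowest in NGT mouse 3, with a 29.8-fold span.

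Retn, which encodes resistin, a hormone of mouse adipocytes, was at 53.5, 17.7 and 3.09 CPM in NGT, at 84.7, 9.30 and 11.6 CPM in T1D and at 12.3, 9.11 and 17.7 CPM in Lira. All 3 Lira mice lay inside the range of the NGT mice. Lep, which encodes leptin, the hormone that signals fat stores to the brain, was near the limit of detection, at 1.33, 0.541 and 0.317 CPM in NGT, at 2.50, 1.90 and 0 CPM in T1D and at 2.36, 0.623 and 0.287 CPM in Lira. T1D mouse 3 had 0 Lep counts, which allows a level of up to 0.200 CPM (3 counts, counting error only), while the highest of all 9 values was in the same group.

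Among the lipid droplet genes, 3 had the pattern of Adipoq and 1 did not. Plin1, the perilipin that coats the droplet of mature adipocytes and controls lipolysis, was at 26.8, 7.81 and 1.35 CPM in NGT, at 29.1, 5.76 and 10.7 CPM in T1D and at 10.5, 4.52 and 7.86 CPM in Lira. Cidec, which promotes the fusion of droplets into a single large one, was at 61.2, 23.1 and 4.12 CPM in NGT, at 88.1, 11.9 and 25.3 CPM in T1D and at 41.5, 11.8 and 16.6 CPM in Lira. In both genes T1D mouse 1 was highest, NGT mouse 1 second and NGT mouse 3 lowest. Fabp4, a fatty acid carrier of adipocytes that macrophages and capillary endothelium also express, was at 516, 301 and 178 CPM in NGT, at 737, 371 and 396 CPM in T1D and at 392, 283 and 351 CPM in Lira. Its order at both ends was the same but its span was 4.14-fold. Plin4, a perilipin of nascent droplets that is abundant in muscle as well as in fat, was at 333, 793 and 625 CPM in NGT, at 142, 467 and 491 CPM in T1D and at 1317, 472 and 362 CPM in Lira. Here T1D mouse 1 was the lowest and NGT mouse 1 the second lowest of the 9 mice, and Lira mouse 1 stood far above the rest.

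The adipogenic factors were highest in the same 2 mice and differed in the order of the others. Pparg was at 12.5, 7.27 and 4.83 CPM in NGT, at 15.2, 7.20 and 8.87 CPM in T1D and at 6.07, 9.35 and 6.66 CPM in Lira, a 3.15-fold span. Cebpa was at 50.3, 15.6 and 9.34 CPM in NGT, at 80.9, 16.8 and 21.3 CPM in T1D and at 21.1, 8.41 and 27.1 CPM in Lira, a 9.62-fold span. Both were highest in T1D mouse 1 and second highest in NGT mouse 1, and Cebpa was lowest in Lira mouse 2 rather than NGT mouse 3. Within Lira, Pparg was highest in mouse 2, where Adipoq and Cebpa were lowest.

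Compared per length, in FPKM (fragments scaled by gene length and library size), the median level over the 9 mice was highest for Fabp4 (589 FPKM), followed by Cfd (164), Plin4 (74.6), Adipoq (25.4), Retn (20.01), Cidec (12.1), Cebpa (7.28), Plin1 (4.63), Pparg (4.12) and Lep (0.17). Neighbours in this order were separated in all 9 mice only for Fabp4 above Cfd, Cebpa above Plin1 and Pparg above Lep. Cfd was above Plin4 in 6 of 9 mice, Plin4 above Adipoq in 7, Cidec above Cebpa in 7 and Plin1 above Pparg in 6. Retn was above Cidec in 8 of 9 mice. Adipoq was above Retn in 3 of 9 mice only, although its median was higher, so these 2 levels had no fixed order.

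The comparison of T1D with NGT asked what untreated diabetes changed in the tibia. None of the 10 genes was called (edgeR quasi-likelihood test, Benjamini-Hochberg adjusted p under 0.05 and a change over 2-fold), as was true of 0 of the 13960 tested genes (0%). Unadjusted p was under 0.05 for 0 of the 10, against 2.36% of all genes higher and 1.6% lower in T1D, and non-overlapping groups were seen for 0 of the 10, against 3.52% higher and 5.08% lower. Mean Adipoq was 67.7 ± 66.0 CPM (SD, n = 3) in T1D and 40.3 ± 43.3 CPM in NGT, a log2 fold change of 0.75 with a standard error of 0.96. An exact two-sided permutation test over the mice gave p = 0.6, where 3 against 3 mice cannot go below 0.1. The difference was smaller than its standard error and than either SD. The log2 fold changes of the other adipokines were 0.99 ± 1.25 (SE) for Lep, 0.77 ± 1.04 for Cfd and 0.51 ± 1.03 for Retn. Those of the droplet and fatty acid binding genes were 0.34 ± 0.92 for Plin1, 0.50 ± 0.97 for Cidec, 0.60 ± 0.41 for Fabp4 and -0.67 ± 0.62 for Plin4. Pparg had 0.35 ± 0.41 and Cebpa 0.66 ± 0.79. Only the values of Fabp4 and Plin4 were larger than their standard errors, and the adjusted p-values of the 10 genes lay between 0.977 and 0.986 in the same edgeR fit.

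Of the 10 log2 fold changes of T1D against NGT, 9 were above 0, with a median of 0.55 beside 0.02 for all tested genes, of which 52.1% were above 0 and 47.9% below. The sign of 7 of them changed when single mice were left out, whereas Lep, Fabp4 and Plin4 kept theirs. Without T1D mouse 1 the median was -0.43 and 2 of the 10 values were above 0, and without NGT mouse 1 the median was 1.70. Without NGT mouse 3 it was 0.15, with 6 of 10 values above 0. The labels do not describe mice with the same number as pairs. Between same-numbered mice, Adipoq in T1D was 1.62, 0.942 and 6.34 times its level in NGT for numbers 1, 2 and 3. Fabp4 was at 1.43, 1.23 and 2.22 times and Cebpa at 1.61, 1.07 and 2.28 times, both above 1 in all 3 pairs, and Plin4 was at 0.426, 0.589 and 0.785 times, below 1 in all 3. In an edgeR fit of NGT and T1D alone with the mouse number as a block, added after these pairs were seen to vary together, these 3 of the 10 genes had an unadjusted p under 0.05, against 14.2% of all genes in that fit. The values were 0.0104 for Plin4, 0.0200 for Fabp4 and 0.0307 for Cebpa in that edgeR fit, with adjusted p-values of 0.249, 0.274 and 0.305.

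The comparison of Lira with T1D asked what liraglutide changed in diabetic mice. Again 0 of the 10 genes were called, as for 0 of all tested genes (0%), and 0 had an unadjusted p under 0.05, against 1.55% of all genes higher and 1.78% lower in Lira. The groups overlapped for all 10, whereas 3.74% of all genes lay entirely higher and 3.4% entirely lower. Mean Adipoq was 28.0 ± 13.0 CPM in Lira (SD, n = 3), and its log2 fold change against T1D was -1.27 ± 0.97 (SE), with an exact permutation p of 0.6. Cfd had -1.51 ± 1.05, Retn -1.43 ± 1.06, Lep -0.44 ± 1.22, Plin1 -0.99 ± 0.93, Cidec -0.84 ± 0.98, Fabp4 -0.55 ± 0.41, Pparg -0.51 ± 0.41 and Cebpa -1.07 ± 0.79. Plin4 had the opposite sign, with 0.97 ± 0.62. The adjusted p-values were between 0.978 and 0.987 (edgeR).

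The 9 negative values had their counterpart in the mean of T1D, which is shared by this comparison and that of T1D with NGT, so the opposite signs are not independent. The median over the 10 genes was -0.92 beside 0.04 for all tested genes, of which 44.7% were negative. Without T1D mouse 1 the median was -0.04 and 4 of the 10 values were positive. In the Lira mice, Adipoq was within 13.0 to 36.4 CPM and Cfd within 60.2 to 198 CPM, both inside the span of the NGT mice.

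The comparison of all 6 STZ mice with the 3 NGT mice, taken as the mean of T1D and Lira, used the same T1D and Lira libraries. It also had 0 of 10 genes called (0% of all genes) and 0 of 10 at an unadjusted p under 0.05, against 0.824% of all genes higher and 0.974% lower. No gene separated the 6 mice from the 3, which 0.444% of all genes did upwards and 0.372% downwards. The log2 fold changes lay between -0.21 (Retn, SE 0.89) and 0.77 (Lep, SE 1.11), with 0.11 ± 0.83 for Adipoq, 0.01 ± 0.89 for Cfd and 0.32 ± 0.36 for Fabp4. Their median was 0.09 beside 0.03 for all genes, and 7 of 10 were above 0 and 3 below, beside 55% and 45% of all genes. Without T1D mouse 1 the median was -0.45, and without NGT mouse 1 it was 1.17. The adjusted p-values were 0.999 or above (edgeR).

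**Figure D2:**
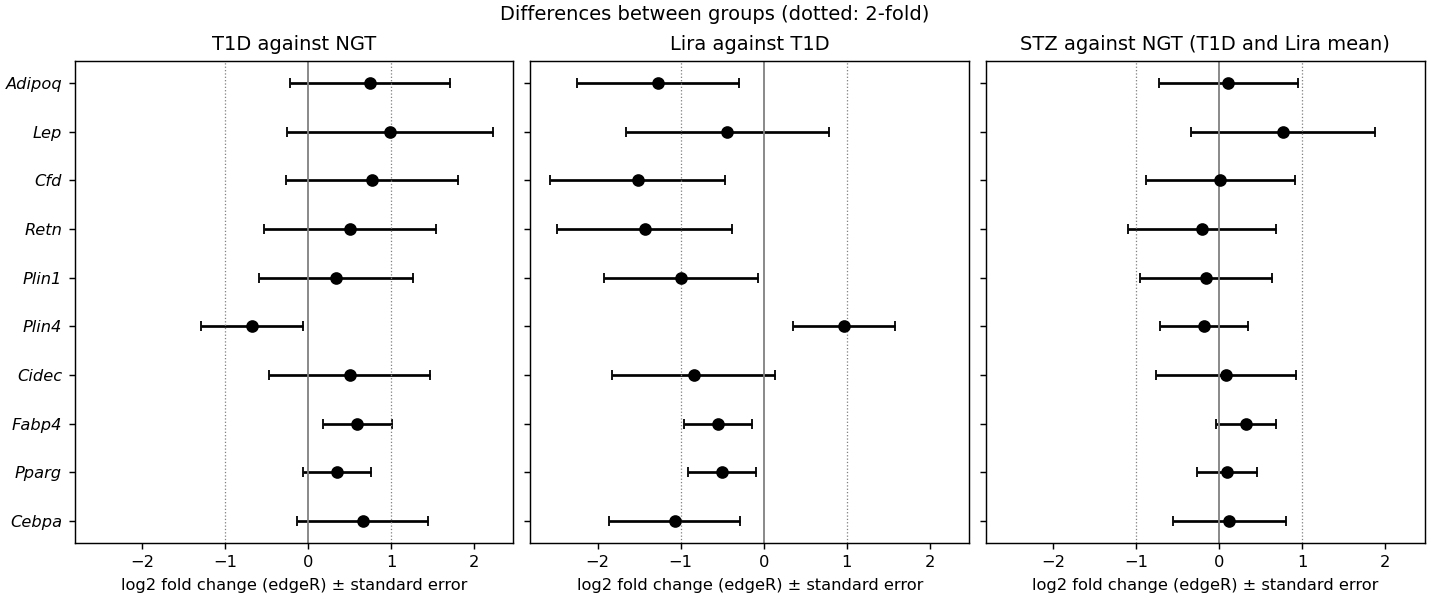
Log2 fold change of each gene with its standard error from the edgeR fit, for T1D against NGT, Lira against T1D and all STZ mice against NGT; the solid line marks no change and the dotted lines a 2-fold change. Adipoq was at 0.75, -1.27 and 0.11 in the 3 comparisons, Plin4 had the opposite sign to most genes in the first 2, and no value passed the test.

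How much of the variation lay between groups was also described gene by gene. The median share of the variance of log2 CPM that lay between the 3 groups was 12.4% over the 10 genes and 17.1% over all tested genes. Without any group difference, a mean share of 25% would be expected (2 of 8 degrees of freedom). The SD of log2 CPM over the 9 mice had a median of 1.32 for the 10 genes and of 0.36 for all tested genes. In 6 of them (Adipoq, Lep, Cfd, Retn, Plin1 and Cidec) the SD was above 1.08, the 90th percentile of all genes.

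The genes varied together between mice. Over the 9 mice, log2 CPM of Plin1 and Adipoq had a Pearson r of 0.981 (exact permutation p = 3.31e-05, adjusted p = 0.000248 over the 9 relations with Adipoq that were computed) and a Spearman rho of 0.933 (exact p = 0.00075, adjusted p = 0.00337). Cfd had r = 0.979 and rho = 0.90, Fabp4 r = 0.974 and rho = 0.85, Retn r = 0.958 and rho = 0.90, Cebpa r = 0.950 and rho = 0.95, and Cidec r = 0.947 and rho = 0.90. For these 6 genes the adjusted exact permutation p-values of r were at most 0.000678 and those of rho at most 0.00911. NGT mouse 3 and T1D mouse 1 were farthest from the median of Adipoq, and without both, r was 0.954 for Plin1, 0.938 for Cfd, 0.910 for Fabp4, 0.866 for Retn, 0.988 for Cebpa and 0.832 for Cidec. On deviations from the group means, r was 0.981, 0.981, 0.987, 0.972, 0.951 and 0.952 in the same order, so the shared variation lay within the groups.

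Pparg followed less closely, with r = 0.795 (exact permutation p = 0.0112, adjusted p = 0.0144) and rho = 0.50 (exact p = 0.178, adjusted p = 0.200), and its relation rested on NGT mouse 3 and T1D mouse 1, without which r was 0.379. Lep had r = 0.420 (exact permutation p = 0.264, adjusted p = 0.264) and rho = 0.35 (exact p = 0.359), and r = 0.106 without these 2 mice. Plin4 had r = -0.571 (exact permutation p = 0.101, adjusted p = 0.113), rho = -0.567 (exact p = 0.121), and r = -0.238 without them. Among the 8 genes other than Plin4 and Lep, the 28 pairwise r were between 0.729 and 0.981 with a median of 0.928, whereas the 9 pairs of Plin4 were between -0.765 and -0.131.

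The ratios to Adipoq show how fixed these proportions were. Plin1 was at 0.202 to 0.347 times the CPM of Adipoq in the 9 mice, Cfd at 3.35 to 5.97 times, Retn at 0.340 to 0.701 times and Cidec at 0.457 to 1.20 times. These ratios moved at most 2.62-fold while Adipoq itself moved 26.7-fold. Cebpa ranged from 0.563 to 1.74 times Adipoq. Fabp4 ranged from 5.13 times in T1D mouse 1 to 33.1 times in NGT mouse 3, so its level changed less than that of Adipoq between the same mice. Plin4 ranged from 0.987 times in T1D mouse 1 to 116 times in NGT mouse 3.

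**Figure D3:**
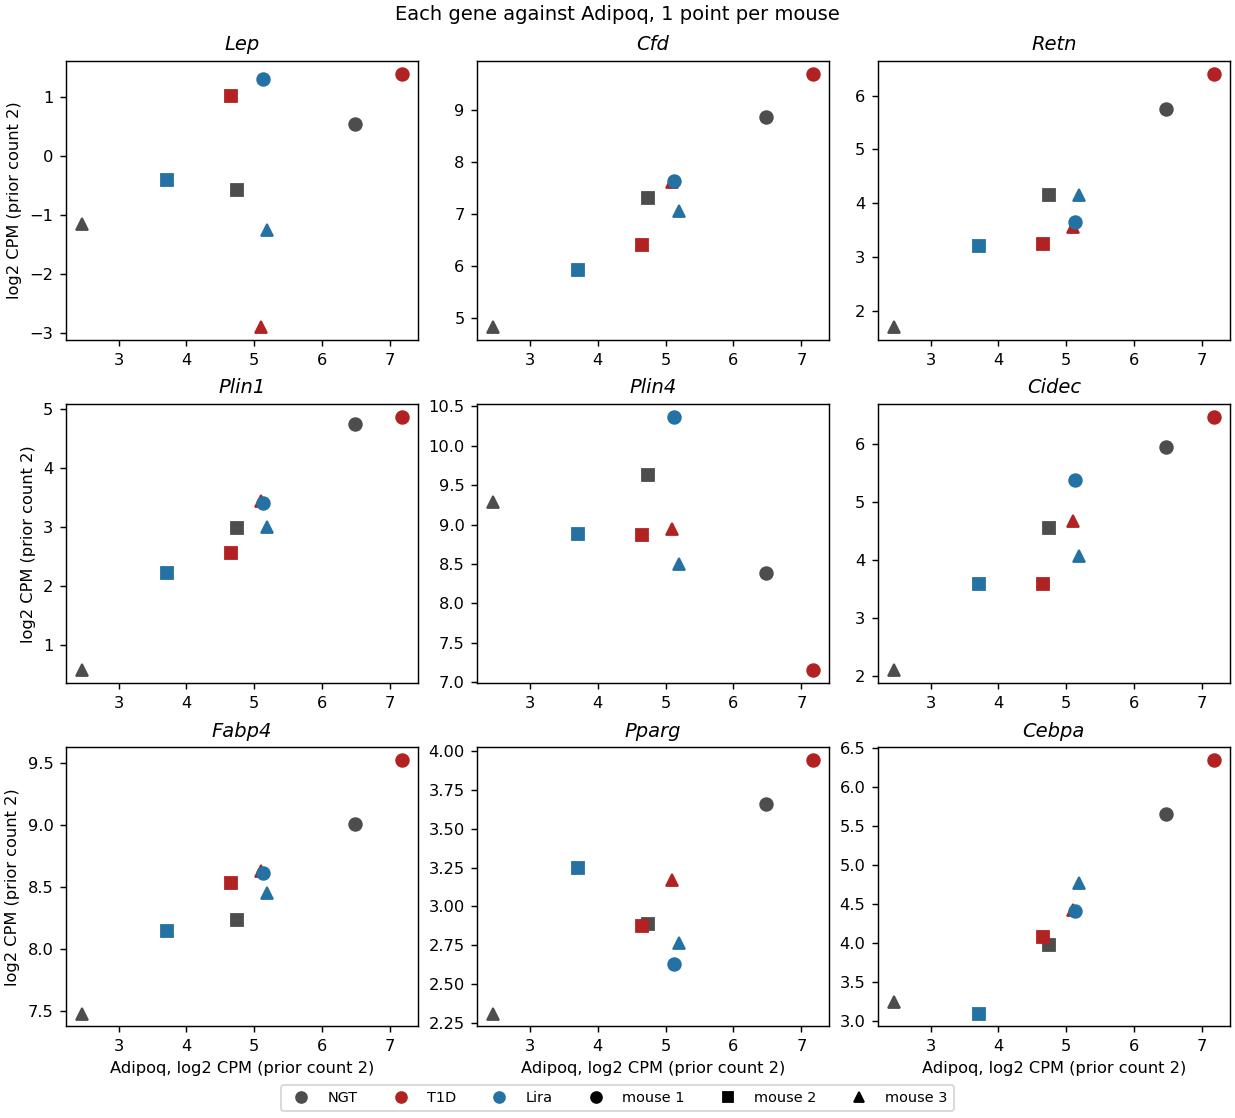
Level of each of the other 9 genes against Adipoq, both as log2 CPM with a prior count of 2; each point is 1 mouse, coloured by group and shaped by mouse number. Plin1 (r = 0.981) and Cfd (r = 0.979) lie close to a line on which the 3 groups are mixed, Lep (r = 0.420) scatters, and Plin4 (r = -0.571) is lowest in the mouse with the most Adipoq.

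Against all 13960 tested genes ranked by r with Adipoq, Adipoq itself being the first, Plin1 ranked 2, Cfd 4, Fabp4 6, Retn 13, Cebpa 19 and Cidec 22, whereas Pparg ranked 462, Lep 4145 and Plin4 11152. An r over 0.9 was reached by 73 other genes (0.523%). The 10 genes outside the set with the highest r were Car5b (0.979), Ugt1a6b (0.978), Prkci (0.974), Fads3 (0.969), Mgst1 (0.968), Stard5 (0.965), Ltc4s (0.964), Lrch1 (0.964), Cdo1 (0.957) and Rsph9 (0.955). Car5b, a mitochondrial carbonic anhydrase, was at 2.69 CPM in NGT mouse 3, at 25.1 CPM in NGT mouse 1 and at 33.7 CPM in T1D mouse 1. Cdo1, the cysteine dioxygenase, had the same ends, with 8.15 CPM in NGT mouse 3, 111 CPM in NGT mouse 1 and 190 CPM in T1D mouse 1. Prkci and Lrch1 spanned much less, 7.52 to 13.9 and 6.49 to 11.6 CPM. Ugt1a6b shares exons with its neighbours of the same family and its value is uncertain, and Rsph9 did not exceed 1.09 CPM.

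Other genes of fat were then read from lists. Of 12 tested genes enriched in adipocytes, 6 had an r over 0.9 with Adipoq and the median was 0.904, beside 0.033 for all tested genes. The highest was Mrap (0.950), the accessory protein of the melanocortin receptor, followed by Adig (0.945) and Pde3b (0.940), the phosphodiesterase through which insulin restrains lipolysis. Adrb3, the beta-3 adrenergic receptor, was at 19.5 CPM in T1D mouse 1, at 7.23 CPM in NGT mouse 1 and at 0.396 to 3.64 CPM in the other 7 mice. Of the 12, 8 had an r over 0.8. Lower values were found for Sncg (0.716), Thrsp (0.63), a regulator of lipid synthesis, and Cav1 (0.405), the caveolar protein that endothelium also expresses. Car3, a carbonic anhydrase of fat and of muscle at 2952 to 7098 CPM, had a negative r (-0.358). In this list 0 of 12 genes were called in any comparison. Its median log2 fold change was 0.35 for T1D against NGT, with 10 of 12 above 0 beside 52.1% of all tested genes, and -0.67 for Lira against T1D, with 0 of 12 above 0 beside 55.3%. Without T1D mouse 1, a setting added for this list after seeing the data, the medians were -0.35, with 3 of 12 above 0, and 0.19, with 8 of 12 above 0. Mrap, Adig, Pde3b, Adrb3 and Sncg were chosen after their values were seen.

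The lipid handling lists did not move as one with Adipoq. Among 13 further genes of droplet coats and lipolysis the median r was 0.122, from Lipe (0.901), the hormone-sensitive lipase, to Fitm1 (-0.801), a droplet-forming protein of muscle. Among 22 genes of fatty acid uptake and triglyceride synthesis it was 0.324, from Pck1 (0.903), which makes glycerol 3-phosphate for triglyceride in fat, to Gpd1 (-0.818). Lpl, the lipoprotein lipase, was at 1225, 1981 and 766 CPM in NGT, at 1016, 614 and 689 CPM in T1D and at 1064, 1206 and 660 CPM in Lira. Its log2 fold change for T1D against NGT was -0.78 ± 0.40 (SE; unadjusted p = 0.0841, adjusted p = 0.977, edgeR). Slc2a4, the insulin-regulated glucose transporter GLUT4, had -0.68 ± 0.30 (unadjusted p = 0.0512, adjusted p = 0.977, edgeR). None of the genes in either list was called.

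A few genes of the further lists had an unadjusted p under 0.05, which was reached over all tested genes by 2.36% higher and 1.6% lower for T1D against NGT, 1.55% and 1.78% for Lira against T1D, and 0.824% and 0.974% for STZ against NGT. None of them had an adjusted p under 0.977 (edgeR). Rarres2, which encodes the adipokine chemerin, was at 14.2, 8.12 and 9.42 CPM in NGT, at 24.0, 14.8 and 17.2 CPM in T1D and at 8.71, 12.6 and 8.73 CPM in Lira. It was the 1 gene of 9 further secreted factors with an unadjusted p under 0.05, with log2 fold changes of 0.82 ± 0.29 (SE) for T1D against NGT and -0.90 ± 0.29 for Lira against T1D, and its 3 T1D mice lay above all NGT and Lira mice. Its r with Adipoq was 0.557. Aqp7, the glycerol channel of adipocytes, was at 12.7 to 15.9 CPM in NGT, 10.5 to 13.4 CPM in T1D and 6.00 to 10.3 CPM in Lira, with -0.65 ± 0.24 for Lira against T1D. Me1, the malic enzyme that supplies NADPH for fatty acid synthesis, had -0.44 ± 0.17 for all STZ mice against NGT.

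Of 13 adipogenic regulators other than Pparg and Cebpa, 2 were higher in STZ than in NGT at an unadjusted p under 0.05, against 0.824% of all genes. For T1D against NGT it was 1 of the 13, Klf4, against 2.36%. Klf4 was at 29.5, 27.2 and 16.9 CPM in NGT and at 56.7, 43.3 and 34.7 CPM in T1D, a log2 fold change of 0.87 ± 0.29 (SE). Cebpd, an early factor of adipogenesis that glucocorticoids also induce, was at 33.3, 54.9 and 37.3 CPM in NGT, at 70.5, 69.8 and 87.4 CPM in T1D and at 248, 78.4 and 77.8 CPM in Lira. All 6 STZ mice were above all 3 NGT mice, as was so for 0.444% of all tested genes. The log2 fold change of Cebpd for STZ against NGT was 1.27 ± 0.41 (unadjusted p = 0.013, adjusted p = 0.999, edgeR). Cebpd did not follow Adipoq (r = 0.099), while Klf4 did in part (r = 0.787). The median r of these 13 regulators was 0.194, with Ebf1 highest (0.822) and Rxra, the partner of PPARγ, lowest (-0.724).

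Of the 4 adipokine receptors, 3 had a negative r with Adipoq. Adipor1, a receptor of adiponectin, had r = -0.790 with Adipoq and was at 294, 414 and 460 CPM in NGT, at 281, 460 and 471 CPM in T1D and at 379, 398 and 369 CPM in Lira. Its lowest values were in T1D mouse 1 and NGT mouse 1, the mice with the most Adipoq. Adipor2 had r = -0.701 and Cdh13, the adiponectin-binding cadherin, r = -0.501. The fourth, Lepr, the leptin receptor, named after its value was seen, had r = 0.517 and was highest in NGT mouse 1, at 21.3 CPM. In the 3 comparisons 0 of 4 receptors were called and 0 had an unadjusted p under 0.05.

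Of the brown and beige adipocyte genes, Ucp1 had 0 to 4 counts per library and did not pass the filter, and the 8 tested had a median r with Adipoq of 0.364. Ppargc1a, a coactivator of mitochondrial genes in brown fat and muscle, was at 70.3, 150 and 69.3 CPM in NGT and at 19.6, 56.1 and 35.2 CPM in T1D, a log2 fold change of -1.38 ± 0.51 (SE; unadjusted p = 0.025, adjusted p = 0.977, edgeR). It was the 1 gene of the list with an unadjusted p under 0.05, and its r with Adipoq was -0.477.

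**Figure D4:**
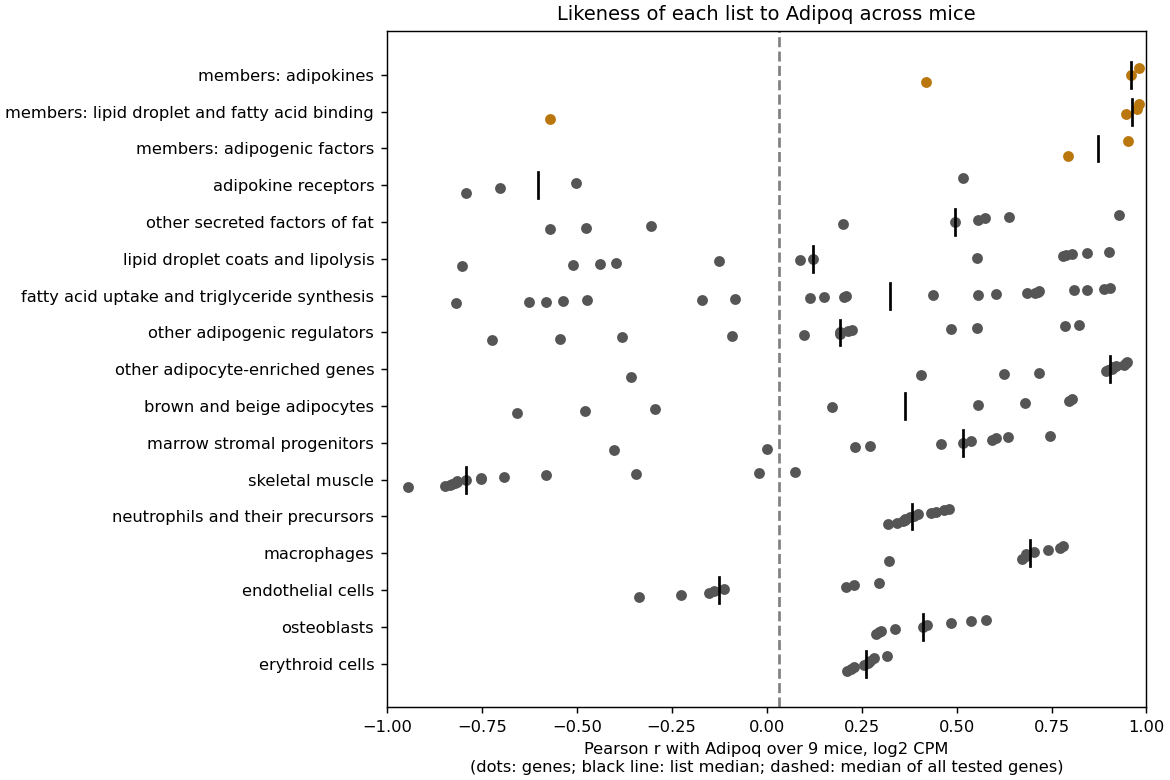
Pearson r of log2 CPM with Adipoq over the 9 mice; each dot is a gene, orange for the 9 other adipocyte and adipokine genes and grey for the further lists, the black line is the median of a list and the dashed line the median of all tested genes (0.033). Adipocyte-enriched genes (median 0.904) lie at the right and skeletal muscle genes (median -0.792) at the left.

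Markers of the other cells of the tibia moved with the same mice to different degrees. Of 15 skeletal muscle genes, 14 had a negative r with Adipoq, with a median of -0.792 and the lowest for Casq1 (-0.944). Myh2, a fast oxidative myosin and the 1 gene of this list with an unadjusted p under 0.05, was at 4148, 5668 and 1363 CPM in NGT, at 1407, 1702 and 1060.0 CPM in T1D and at 3921, 5826 and 2557 CPM in Lira, with log2 fold changes of -1.42 ± 0.53 (SE) and 1.56 ± 0.54. Its r with Adipoq was -0.020. The summed CPM of muscle genes was 94842 in T1D mouse 1 and 125128 in NGT mouse 1, the 2 mice with the highest levels of 8 of the 10 genes, and 131957 in Lira mouse 3, where Adipoq was 36.4 CPM. Plin4 was lowest in T1D mouse 1 and NGT mouse 1 as well. The part of muscle RNA in the levels of Adipoq, Plin4 and the other genes was not tested.

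Macrophage genes had a median r of 0.693, and 5 of the 8 tested, Cd68, Adgre1, C1qa, C1qb and C1qc, had an unadjusted p under 0.05 and a higher mean in T1D than in NGT, against 2.36% of all tested genes, with an adjusted p of 0.977 for each (edgeR). For Lira against T1D the count was 2 of 8, C1qb and C1qc, both lower in Lira, against 1.78% of all genes. C1qa was at 229 CPM in T1D mouse 1 and at 5.96 to 22.4 CPM in the other 8 mice. Fabp4 and Pparg are also expressed by macrophages, and the part of macrophages in their high values in T1D mouse 1 was not tested. In NGT the macrophage list was at 131 CPM in mouse 1, where both genes were second highest, and at 41.9 and 56.0 CPM in the other 2 mice.

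Stromal progenitor genes had a median r of 0.517, with Cxcl12 highest (0.745). Foxc1 was at 2.32 to 5.01 CPM in NGT, 4.87 to 13.4 CPM in T1D and 1.95 to 4.50 CPM in Lira, with log2 fold changes of 1.51 ± 0.51 (SE) and -1.38 ± 0.50 for the 2 comparisons and unadjusted p-values of 0.0164 and 0.0235 (adjusted p = 0.977 and 0.978, edgeR). Pdgfra, a receptor of mesenchymal progenitors, was at 30.3 to 40.1 CPM in NGT, 32.5 to 76.4 CPM in T1D and 22.7 to 33.3 CPM in Lira, with -0.74 ± 0.32 for Lira against T1D. In all, 2 of the 11 genes of this list were higher in T1D than in NGT and 2 lower in Lira than in T1D at an unadjusted p under 0.05. Pi16, a marker of adventitial progenitors, was at 13.5 to 18.0 CPM in NGT and 24.2 to 44.3 CPM in T1D, with 1.01 ± 0.32. Osteoblast genes had a median r of 0.411, neutrophil genes of 0.384, erythroid genes of 0.262 and endothelial genes of -0.125. Lira mouse 3 had the highest neutrophil and erythroid sums, with Adipoq at 36.4 CPM, and NGT mouse 2 had the lowest of both, with Adipoq at 26.7 CPM.

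**Figure D5:**
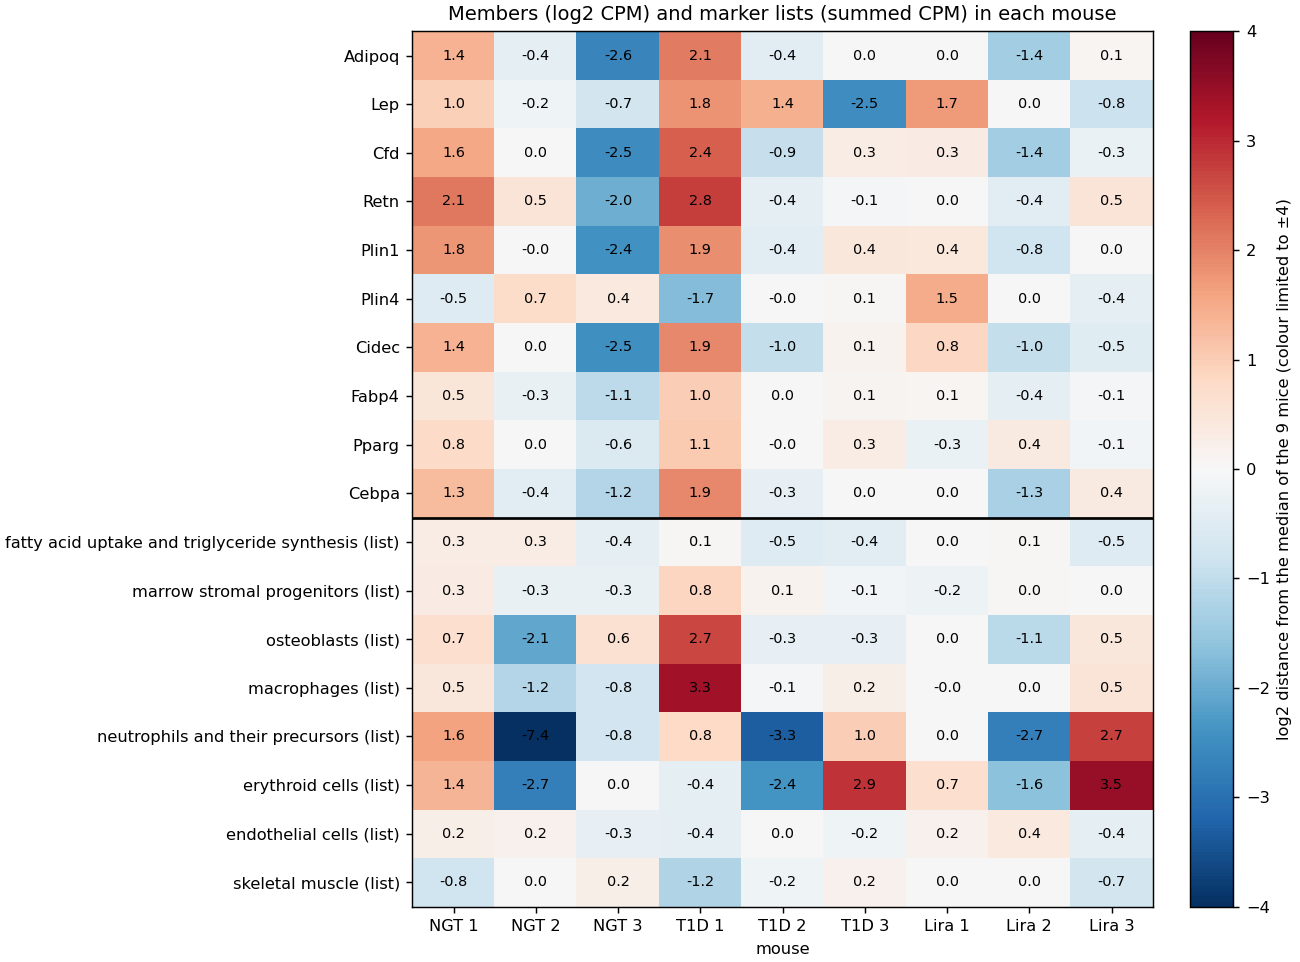
Log2 distance of each mouse from the median of the 9 mice, above the line for the 10 genes (log2 CPM) and below it for the summed CPM of 8 lists; red is higher and blue lower, with colour limited at 4. T1D mouse 1 is high for 9 of the 10 genes, for macrophages (968 CPM) and for osteoblasts (5589 CPM) and low for skeletal muscle (94842 CPM), and NGT mouse 3 is low for the same 9 genes.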

How the data were processed

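RNA-seq of the tibia was analysed for 9 mice, grouped by the sample labels into NGT, T1D and Lira (n = 3 each). The authors mapped the cleaned reads to mouse and deposited, for each gene and mouse, expected counts and FPKM (fragments scaled by gene length and library size). The submitters' processing notes name the build mm9, and the aligner and counter are not given in the sources used here. The deposited expected counts (30.2% of values not whole) were rounded, and totals of 13086373 to 16528394 per library set the precision. Group mean columns in the table are the authors' own and were not used, and every column of a sample was matched to its label (0 unmatched). A symbol on 2 rows (1 case, Plin2) was read from the row with more counts. Because the build of the table is mm9, no gene coordinates are given for it, and promoters are RefSeq sequences of GRCm38.p6.

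Testing used edgeR 4.0.16 (R 4.3.3; TMM, glmQLFit and glmQLFTest, 3 group means over 9 libraries, Benjamini-Hochberg over all tested genes) on genes that reached 10 counts in 3 or more of the 9 libraries. The standard error of a log2 fold change was its size divided by the square root of the F statistic. Single genes were also compared by an exact two-sided permutation test of mean CPM over the mice. Relations with Adipoq used log2 CPM (prior count 2) and all 362880 pairings of the 9 mice. The labels number the mice 1 to 3 in each group. Same-numbered NGT and T1D mice deviated together over all genes (r = 0.583, 0.647 and 0.283), above the limit of 0.1 set for pairing, so the numbers were taken as pairs for a blocked fit given as an alternative, while the main fit and the permutation tests are unpaired. This pairing comes from the data and not from a stated litter or batch. Differently numbered NGT and T1D mice had r between -0.697 and 0.067. Yet NGT mouse 1 and Lira mouse 3 had r = 0.780, so a high r was not limited to mice of the same number. Same-numbered Lira and T1D mice did not all reach the limit of 0.1 (lowest r -0.244). The blocked fits of all 9 libraries and of Lira and T1D alone still used the numbers of the Lira mice. The labels do not state more about the independence of the mice, so the p-values measure the spread between these samples.

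The 10 genes and 14 further lists were chosen with earlier results of these data known. The named genes were taken from within a fixed rule, and not every gene it allows is named: the 10 genes, the 3 genes of highest mean CPM in each further list, up to 5 genes per list and comparison with an unadjusted p under 0.05, and the 10 genes most like Adipoq. Genes named as the ends of a list's range of r, and others where stated, were added after their values were seen. Alternatives were DESeq2 1.42.0 (independent filtering off), RLE factors, plain library size, no filter, fits of 2 groups, the replicate number as a block, limma 3.58.1 on log2(FPKM + 0.1) or log2(FPKM + 1), no fold threshold, and each library left out. The test scripts were tested on simulated data.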

Additional observations from a re-analysis of the deposited data

Results flagged for a closer look

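Within the 6 STZ mice, 8 levels in CPM stood apart from the other 5 mice by Dixon's criterion at the 95% level. Chance alone meets it in about 1 of 20 groups if the values are normally distributed, which was not tested. The criterion was not applied to log2 CPM, on which high values lie closer to the rest, so the 8 levels depend on the CPM scale. T1D mouse 1 was the high value in 7 of the 8 levels: Adipoq at 144 CPM, Cfd at 834 CPM, Retn at 84.7 CPM, Plin1 at 29.1 CPM, Fabp4 at 737 CPM, Pparg at 15.2 CPM and Cebpa at 80.9 CPM. These 7 genes varied together over the mice, so they are not 7 separate observations. Lira mouse 1 was the high value for Plin4, at 1317 CPM. Groups of 3 mice are too small for this criterion and were not examined with it.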

How the results depend on the processing

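None of the 10 genes was called in any comparison under any alternative, and the lowest adjusted p of any of them was 0.249. Of 490 log2 fold changes recomputed under the alternatives, 428 kept their direction and 62 changed it, 17 for T1D against NGT, 7 for Lira against T1D and 38 for STZ against NGT. Depth limited Lep (0 to 46 counts per library), and 3 mice per group limited every comparison.

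Ranges with single mice left out are given for the genes whose sign changed. The log2 fold changes of T1D against NGT then ranged from -0.45 to 2.08 for Adipoq, -0.64 to 1.996 for Cfd, -1.25 to 1.77 for Retn, -0.55 to 1.74 for Plin1, -0.67 to 1.62 for Cidec, -0.033 to 0.79 for Pparg and -0.41 to 1.67 for Cebpa. Those of Lira against T1D ranged from -1.70 to 0.19 for Lep, -1.89 to 0.32 for Retn and -1.56 to 0.33 for Cidec. Those of STZ against NGT ranged from -0.49 to 1.45 for Adipoq, -0.69 to 1.24 for Cfd, -1.09 to 1.05 for Retn, -0.69 to 1.24 for Plin1, -0.58 to 0.10 for Plin4, -0.51 to 1.20 for Cidec, -0.18 to 0.54 for Pparg and -0.41 to 1.14 for Cebpa. Genes not listed kept their sign when any 1 mouse of the groups compared was left out, among them Lep (0.36 to 1.76), Fabp4 (0.21 to 1.07) and Plin4 (-0.95 to -0.29) for T1D against NGT and Adipoq (-1.67 to -0.08) for Lira against T1D. The ranges come from fits with fewer mice in a group.

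With T1D mouse 1 and Lira mouse 3 both left out, T1D against NGT gave -0.49 for Adipoq, -0.67 for Cfd, -1.29 for Retn, -0.59 for Plin1, -0.71 for Cidec, -0.063 for Pparg and -0.44 for Cebpa. Lira against T1D then gave 0.66 for Lep, 0.039 for Retn and 0.52 for Cidec, and STZ against NGT gave -0.64 for Adipoq, -0.73 for Cfd, 0.15 for Plin4, -0.45 for Cidec, -0.095 for Pparg and -0.62 for Cebpa. For STZ against NGT, plain library size gave -0.043 for Cfd, limma gave 0.21 for Retn and 0.52 for Plin1 on log2(FPKM + 0.1) and 0.16 and 0.27 on log2(FPKM + 1), and the cause was not tested. DESeq2 called 1 of all tested genes for Lira against T1D, Gpm6b (log2 fold change -1.77, adjusted p = 0.0367), named here after its value was seen, where edgeR called 0 with 465 genes at an unadjusted p under 0.05 and DESeq2 had 620.

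With the replicate number as a block over the 9 libraries, no call changed. Retn and Plin1 for STZ against NGT became 0.078 and 0.16. The median over the 10 genes for Lira against T1D was -0.92 in the main fit and -0.56 with the block. That for T1D against NGT was 0.55 in both. For T1D against NGT the block raised the genes at an unadjusted p under 0.05 from 552 to 752, with 0 called. A block fit of NGT and T1D alone, added after the correlations between same-numbered mice were known, had 1931 such genes and 0 called, and included Plin4 (-0.78, adjusted p = 0.249), Fabp4 (0.66, adjusted p = 0.274) and Cebpa (0.66, adjusted p = 0.305). The block fit of Lira and T1D alone, added with it, had 258 such genes of 13684 and 0 called. It included 1 of the 10 genes, Cfd (-1.04, unadjusted p = 0.0462, adjusted p = 0.9997, edgeR).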

Other observations

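In the list of fatty acid uptake and triglyceride synthesis, the 6 genes that make, elongate or desaturate fatty acids or supply their precursors (Fasn, Acaca, Acly, Me1, Elovl6 and Scd1, a sublist chosen after the values were seen) had NGT mouse 1 and T1D mouse 1 as their 2 highest mice. Because of that choice, the shared order is a description only. Not all genes of the list shared it, and Gpd1, Gpam and Lpin1 were lowest in T1D mouse 1. Fasn, the fatty acid synthase, was at 807, 233 and 23.9 CPM in NGT mice 1, 2 and 3, at 781, 13.6 and 14.0 CPM in T1D mice 1, 2 and 3 and at 50.2, 188 and 202 CPM in Lira mice 1, 2 and 3. Scd1, the desaturase, was at 1321, 229.8 and 80.4 CPM in NGT, at 1117, 184 and 14.4 CPM in T1D and at 306, 281 and 492 CPM in Lira. Elovl6, the elongase, was at 70.9, 20.5 and 1.82 CPM in NGT, at 75.6, 3.40 and 1.47 CPM in T1D and at 3.28, 12.1 and 23.1 CPM in Lira. Me1 was far more even, at 564, 483 and 530 CPM in NGT, at 559, 403 and 380 CPM in T1D and at 321, 369 and 313 CPM in Lira.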
